A study of Homo sapiens with 4 samples.

Results

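The zinc finger cluster at 19q13.41-q13.42 was examined as a stretch of 2.4 Mb of human chromosome 19 (chr19:51800001-54200000, hg19), and its members were the regions of 3 deposited lists whose midpoint fell inside it. It held 51 of the 2836 H4K20me3 peaks of proliferating cells (PRO), 336 of the 35535 peaks of replicative senescent cells (RS) and 118 of the 18711 regions listed by DiffBind as differing between the states. The cells were IMR90, an established line of human lung fibroblasts that stops dividing after a limited number of doublings in culture. PRO cells were at population doubling 32 and RS cells at population doubling 86. Both were grown at low oxygen, and the labels name no other treatment. H4K20me3 was mapped by ChIP-seq with 2 antibodies per state, 1 from Millipore and 1 from Cell Signaling Technology, and ChIP of total histone H4 served as the control. Each state was deposited as 1 list of the domains found with both antibodies, so no value here has a replicate error, no test between the states was possible, and all samples are of 1 cell line. The lists carry no read depth, the read totals that the study gives per library were not used here, and the part of depth or enrichment in the number of peaks was not tested. By the study's account, peaks of the 2 antibodies overlapped more in RS than in PRO cells. Keeping only shared domains may thus have removed more PRO peaks, which was not tested either.

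H4K20me3 is trimethylation of histone H4 at lysine 20, a mark of silent chromatin that is laid down mainly by SUV420H2 at sites that already carry H3K9me3. KRAB zinc finger genes encode repressors that bind DNA through a row of zinc fingers and recruit TRIM28 to silence retroelements. Most of these genes lie in clusters on chromosome 19 that arose by repeated duplication, with the promoter at one end and the whole row of fingers encoded in the last coding exon at the other end.

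The row of fingers is the part of these genes that RS peaks covered most and PRO peaks did not touch, so stretches of it are shown. They come from the 3 most RS-covered genes in which a clean stretch with RS cover was found (ZNF880, ZNF836, ZNF350) and from ZNF888, which had no peak. Genes with an RS peak whose stretch held no RS base, such as ZNF578, were passed over, so some RS cover of these 3 stretches was set by the choice. Each stretch is 98 bases of coding strand and runs from one linker to the next. A finger and its linker repeat every 84 bases. Capitals mark the linker, 14 bases that match the codons for threonine, glycine, glutamate, lysine and proline with the last base of each codon free, so that aspartate and asparagine codons match as well. Both strands were searched.
ZNF880 finger (chr19:52887536-52887633, plus strand): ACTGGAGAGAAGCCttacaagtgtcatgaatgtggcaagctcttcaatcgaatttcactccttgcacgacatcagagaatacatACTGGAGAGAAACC
ZNF836 finger (chr19:52659950-52660047, minus strand): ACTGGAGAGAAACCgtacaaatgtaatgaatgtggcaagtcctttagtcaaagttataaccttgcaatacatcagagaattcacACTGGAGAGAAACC
ZNF350 finger (chr19:52468924-52469021, minus strand): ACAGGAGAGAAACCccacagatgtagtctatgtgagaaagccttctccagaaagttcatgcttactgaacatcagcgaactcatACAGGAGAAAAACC
ZNF888 finger (chr19:53410685-53410782, minus strand): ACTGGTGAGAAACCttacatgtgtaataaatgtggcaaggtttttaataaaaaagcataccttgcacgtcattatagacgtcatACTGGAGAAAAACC
The stretches of ZNF880, ZNF836 and ZNF350 lay wholly in RS peaks and wholly in DiffBind regions, and that of ZNF888 lay in neither. The stretches of ZNF880 and ZNF888 were identical at 77.6% of bases, those of ZNF880 and ZNF836 at 81.6%, and those of ZNF880 and ZNF350 at 65.3%. Among these chosen stretches, likeness to the ZNF880 stretch therefore did not separate the covered ones from the one that was not.

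At the other end of the genes, some PRO peaks lay at gene starts, 18 of the 51 in the promoter of a zinc finger gene. The 200 bases before the annotated starts of ZNF880 and ZNF610 are shown because the first gene had the largest share of its body in PRO peaks and the second began in 1 of the 2 longest PRO peaks of the interval. Capitals mark CpG dinucleotides.
ZNF880 start (chr19:52872970-52873169, plus strand): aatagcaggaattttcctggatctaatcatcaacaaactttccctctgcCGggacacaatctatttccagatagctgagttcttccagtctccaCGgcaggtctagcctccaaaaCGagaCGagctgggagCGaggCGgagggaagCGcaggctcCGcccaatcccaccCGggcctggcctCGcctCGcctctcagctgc
ZNF610 start (chr19:52839296-52839495, plus strand): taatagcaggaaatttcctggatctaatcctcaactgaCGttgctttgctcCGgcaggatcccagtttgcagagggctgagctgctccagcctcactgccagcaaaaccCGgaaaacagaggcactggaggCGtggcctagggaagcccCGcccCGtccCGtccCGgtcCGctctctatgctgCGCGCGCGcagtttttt
These held 11 and 13 CpGs, against a median of 14.5 over the 40 zinc finger genes of the interval and 11 over the 1480 coding genes of chromosome 19. At least 1 CpG was found in this window of 98.2% of the chromosome's coding genes. Both stretches lay wholly in PRO peaks and outside DiffBind regions, and RS peaks covered 100% of the first and 53% of the second.

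Across the interval, RS peaks covered 558.5 kb and PRO peaks 44.9 kb. These were 23.3% and 1.87% of its bases, against 1.33% and 0.12% of the genome. The interval was therefore dense in peaks in both states, and the ratio of RS to PRO covered bases, 12.5, was close to the genome's 11.1 and to chromosome 19's 11.3. DiffBind regions covered 19.7% of the interval. RS peaks were longer as well as more numerous, with a median of 1201 bases against 801 in PRO. The longest RS peak had 10201 bases and the longest PRO peak 2201, and 17 RS peaks reached 5000 bases.

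**Figure D1:**
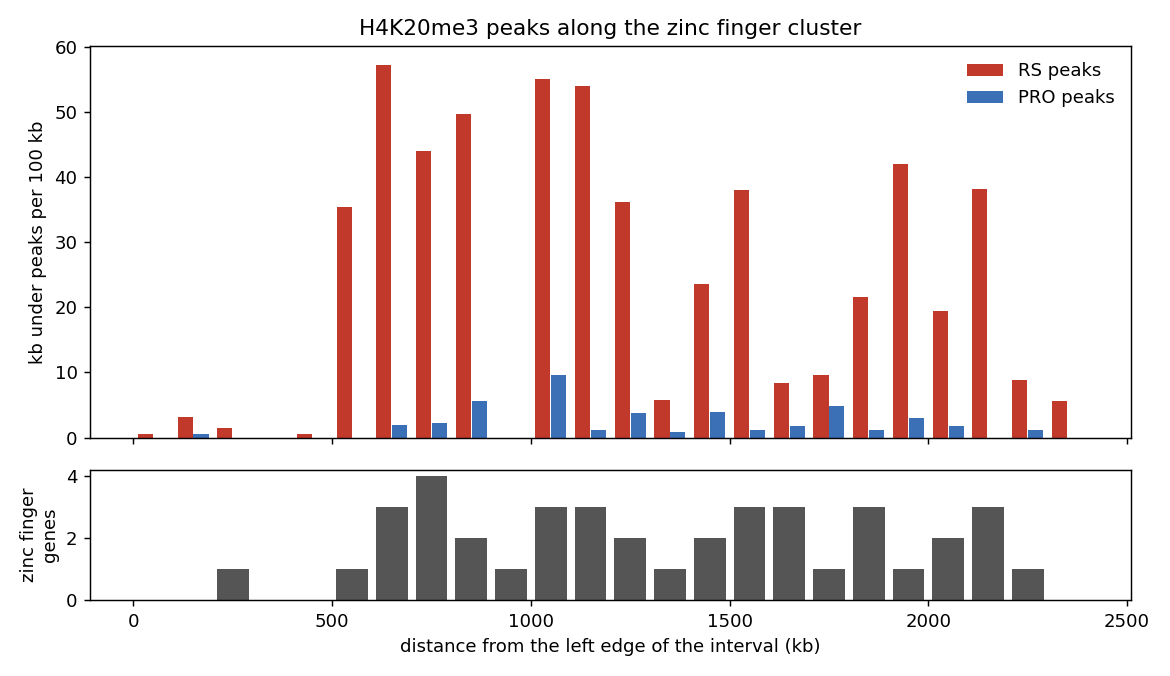
The upper panel plots kb under RS peaks (red) and PRO peaks (blue) in each 100 kb of the interval against distance from its left edge in kb, and the lower panel the number of zinc finger genes whose centre lies there. RS peaks are nearly absent over the first 5 bins, reach 57.2 kb in the seventh bin, and fall to 0 in the tenth, while PRO peaks exceed 5 kb only in the ninth and eleventh bins.

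The cover was patchy along the interval. The first 5 bins of 100 kb, which hold SIGLEC, FPR and other non-finger genes beside ZNF175, had between 0 and 3.20 kb under RS peaks. The next 4 bins, up to 52.7 Mb, had 35.4, 57.2, 44.03 and 49.6 kb. The bin from 52.7 to 52.8 Mb had none in either state, and it lies in a stretch of 130.4 kb without an RS peak (chr19:52673002-52803400) that holds PPP2R1A and ZNF766. From 52.8 to 53.1 Mb the cover was again high, at 55.0, 54.0 and 36.2 kb. Towards the right edge it alternated between 5.80 and 42.0 kb per bin up to 54.0 Mb, and the last bins had 8.81 and 5.60 kb. The first bins also held the longest stretch without an RS peak, of 182.2 kb (chr19:51907802-52090000), where SIGLEC10, SIGLEC8, SIGLEC12 and SIGLEC6 lie. SIGLEC5 and SIGLEC14 lie in the second longest, of 142.6 kb (chr19:52091402-52234000).

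When RS peaks within 5000 bases were joined, they formed 52 domains, and 31.4% of RS bases lay in the 3 fullest of them. The largest (chr19:52349201-52457201, 108001 bases) ran over ZNF577, ZNF649 and ZNF613 and was 64.9% in RS peaks and 0.556% in PRO peaks. A further one (chr19:52559801-52640601, 80801 bases) held ZNF432, ZNF841 and ZNF616. The third (chr19:52942801-53022001, 79201 bases) held ZNF534 and ZNF578, and within an intron of ZNF578 lay the longest RS peak (chr19:52983201-52993401). PRO peaks joined in the same way gave 41 domains, and the longest had 7.60 kb. Thus PRO cells had separate short peaks where RS cells had blocks that ran over several neighbouring genes.

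Zinc finger genes carried most of this cover. Of the 40 zinc finger genes that overlap the interval, 38 had an RS peak (95%, against 21% of all coding genes), 23 had a PRO peak (57.5%, against 3.97%) and 32 had a DiffBind region (80%, against 18.3%). The RS share of the gene body exceeded the PRO share in those 38 genes, and it was below the PRO share in none. A gain, defined by size alone as an RS share of at least 10% and at least 2 times the PRO share, was found for 33 of the 40 genes, against 3.5% of all coding genes. At least 50% of the body was in RS peaks for 16 of the 40, against 1.12% of all coding genes. The 526 zinc finger genes elsewhere had an RS peak in 62.2% of cases and a gain in 48.3%, with a median RS share of 9.13%, against a median of 35.9% in the interval.

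**Figure D2:**
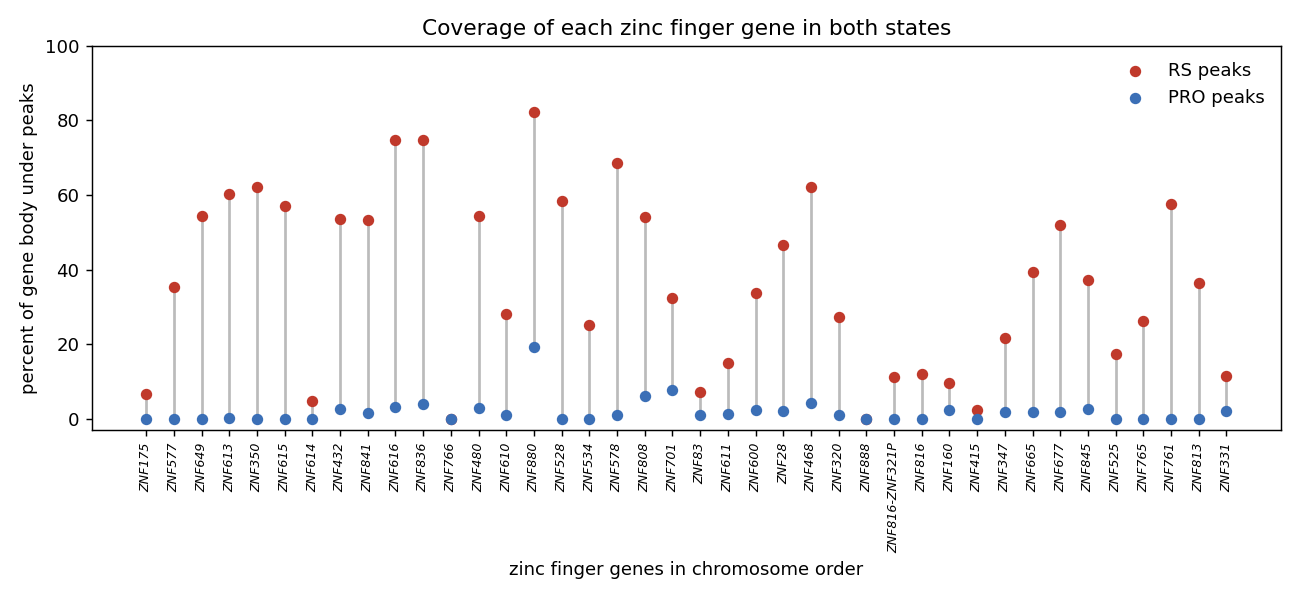
Each zinc finger gene is placed in chromosome order, with the percent of its body under RS peaks in red, under PRO peaks in blue and a grey line between them. ZNF880 stands highest in both lists, at 82.4% and 19.1%, the other 39 genes lie below 8% in PRO, and ZNF766 and ZNF888 lie at 0 in both.

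ZNF880 (chr19:52873170-52889048) had 19.1% of its body in PRO peaks and 82.4% in RS peaks. ZNF616 (chr19:52616344-52643191) went from 2.98% to 74.7%, the largest difference of the interval, and its neighbour ZNF836 (chr19:52657117-52674896) from 3.91% to 74.7%. ZNF578 (chr19:52956806-53020135) had 0.941% and 68.6%. These 4 genes lie within the 2 most densely covered runs of bins. ZNF350, which encodes a repressor known for binding BRCA1, had no PRO peak in its body and 62.2% of it in RS peaks. ZNF468 had 4.08% and 62.2%, and ZNF613 had 0.0555% and 60.2%. ZNF528, ZNF761 and ZNF615 had no PRO peak in the body and RS shares of 58.4%, 57.6% and 57.0%. The other 6 genes with at least 50% in RS were ZNF649, ZNF480, ZNF808, ZNF432, ZNF841 and ZNF677, and they ranged from 52.0% to 54.4%. ZNF808 is known as a repressor of a primate family of retroviral repeats.

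A middle group of 12 genes had RS shares between 20% and 50%: ZNF665 (39.2%), ZNF845 (37.2%), ZNF813, ZNF577, ZNF600, ZNF701, ZNF610, ZNF320, ZNF765, ZNF534, ZNF347 and ZNF28. ZNF28 was the most covered of them at 46.5% and ZNF347 the least at 21.7%. Another 10 genes had an RS peak but less than 20% of the body covered. They were ZNF525 at 17.4%, ZNF611, ZNF816, ZNF331, the ZNF816-ZNF321P readthrough, ZNF160, ZNF83, ZNF175, ZNF614 and, with the least, ZNF415 at 2.39%. ZNF331, which is known to be imprinted, had 11.4% in RS and 1.98% in PRO. ZNF766 (chr19:52772840-52799299) and ZNF888 (chr19:53407668-53426723) had no region of any of the 3 lists. Overlapping genes share bases here (ZNF432 with ZNF841, ZNF28 with ZNF468, ZNF808 with ZNF701, ZNF816 with its readthrough). The ends of ZNF577 and ZNF649, of ZNF415 and ZNF347, and of ZNF525 and ZNF765 overlap as well. The 40 genes are therefore not 40 independent observations.

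The strand of the gene made little difference to these shares. The median RS share was 36.5% over the 17 genes on the plus strand and 35.3% over the 23 on the minus strand.

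Genes of other families in the same interval were covered less than the zinc finger genes, with no body above 16.1% in RS peaks. Of the 28 other coding genes, 5 had an RS peak (17.9%, against 21% of all coding genes), 2 had a PRO peak (7.14%, against 3.97%) and 3 had a gain (10.7%, against 3.5%). The 6 SIGLEC genes (SIGLEC10, SIGLEC8, SIGLEC12, SIGLEC6, SIGLEC5 and SIGLEC14), which encode sialic acid receptors of immune cells, had no region of any list. Of the formyl peptide receptors of phagocytes, FPR1 and FPR2 had none and FPR3 had 3.23% of its body in RS peaks. Of the vomeronasal receptor genes, VN1R4 had none and VN1R2, which lies next to ZNF677, had 12.9% in RS peaks and 33.9% in DiffBind regions. ERVV-1 had none, and ERVV-2, like it an endogenous retroviral envelope gene, had 14.4% in RS peaks and no PRO peak. IGLON5 and FAM90A27P were the other 2 genes with an RS peak, at 3.13% and 16.1%.

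PPP2R1A, which encodes the scaffold subunit of the phosphatase PP2A, and CEACAM18, a member of the carcinoembryonic antigen family, had the opposite pattern. They had 5.47% and 4.71% of the body in PRO peaks and none in RS peaks or DiffBind regions. In PPP2R1A 1 PRO peak lay at its outermost annotated start, near that of ZNF836 on the other strand, and the other in an intron. Both also reached the ZNF836 promoter. PRO cover of the promoters of the 28 other coding genes was 1.24% at outermost starts. It was 0 with the transcript of the longest coding sequence, so the place of the PPP2R1A peaks depended on the gene model.

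By base, the 40 zinc finger genes made up 51.797% of the interval and held 76.1% of its RS bases but 40.0% of its PRO bases. RS peaks covered 34.2% of zinc finger gene bases, 0.921% of other coding gene bases and 16.2% of the sequence outside coding genes. PRO peaks covered 1.44%, 0.876% and 2.96% of the same classes. PRO cover was thus higher outside coding genes than in them, RS cover was highest in zinc finger genes, and the ratio of RS to PRO bases was 23.7 inside zinc finger genes and 5.46 outside coding genes. The sequence outside coding genes includes the upstream side of most zinc finger gene starts. With 2000 bases added on either side, PRO cover of zinc finger genes was 2.45%. Without peaks that hold a repeated 75-base window, PRO cover was 0.647% of zinc finger genes and 0.632% outside coding genes, so the order in PRO was not kept, and the ratios were 13.36 and 7.30.

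In the 28 gaps with a zinc finger gene on both sides, RS peaks covered 36.1% of bases and PRO peaks 6.35%, and 17 gaps had an RS peak. In the 8 gaps with a zinc finger gene on one side RS peaks covered 8.35%, and in the 16 gaps between other coding genes 2.75%. The gap from ZNF649 to ZNF613 (22.1 kb) was 69.7% in RS peaks with no PRO peak, and that from ZNF665 to ZNF677 (42.0 kb) was 57.7% in RS peaks and 4.29% in PRO peaks. By contrast, the gap from ZNF813 to ZNF331 (23.3 kb) had no region of any list. The pooled RS share of these 28 gaps was near the 34.2% of the genes, but the median gap was at 20.4%, fewer of the gaps (17 of 28) than of the genes (38 of 40) had an RS peak, and DiffBind regions covered 23.5% of the gaps.

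Within the genes, the states differed in place as well as in amount. PRO cover was highest around gene starts, at 16.3% of the first kb upstream and 10.5% of the first kb downstream over the 40 genes. RS peaks covered 26.5% and 17.1% of the same bases. Away from the start the states diverged. Between 9 and 10 kb downstream PRO peaks covered 0 and RS peaks 42.3%, and between 9 and 10 kb upstream they covered 4.7% and 38.9%. High RS cover away from starts was thus not confined to the gene side. PRO peaks reached few genes in any 1-kb step there, so a 0 could not be told from low PRO cover. DiffBind regions had their minimum at the start, at 5% of the first kb upstream, and covered 42.8% between 9 and 10 kb.

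**Figure D3:**
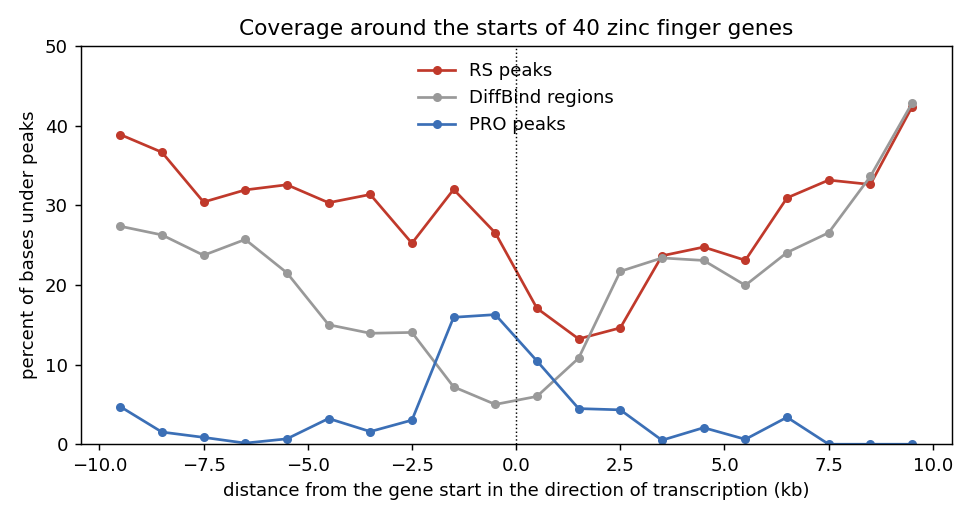
The percent of bases under RS peaks (red), DiffBind regions (grey) and PRO peaks (blue) is plotted in 1-kb steps over 10 kb on either side of the starts of the 40 zinc finger genes, in the direction of transcription. PRO peaks are highest just upstream of the start, at 16.3%, while RS peaks dip to 13.2% and DiffBind regions to 5% near it.

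In promoters, taken as 2000 bases on either side of the start, PRO peaks covered 11.8% of bases, RS peaks 22.2% and DiffBind regions 7.25%. Without peaks that hold a 75-base window found elsewhere in the genome, PRO peaks covered 5.01% and RS peaks 4.6% of the same bases, which turns the order of the states there. A PRO peak was found in 15 of the 40 promoters, and 13 of these 15 also had an RS peak, against 6 of the 25 promoters without a PRO peak. ZNF880 had 59.3% of its promoter in PRO peaks and 90.0% in RS peaks, and ZNF610 had 55.0% and 35.0%. At the ZNF836 promoter, PRO peaks covered 52.4% and RS peaks 2.63%, and at the ZNF808 promoter 35.0% and 0. The ZNF320 promoter had 25.0% in PRO peaks and none in RS peaks. The promoters of ZNF528 and ZNF611 were covered to the same extent in both states, at 32.5% and 30.0%. The starts of these genes were thus the part with most PRO cover, and some of them had less in RS.

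Of the 51 PRO peaks, 18 lay in a zinc finger promoter, 19 elsewhere in a zinc finger gene and 14 outside. At promoters, 14 of the 18 overlapped an RS peak and 2 a DiffBind region. In the rest of the gene, 15 of the 19 overlapped an RS peak and 10 a DiffBind region. Of the 336 RS peaks, 27 (8.04%) lay in a zinc finger promoter, 223 (66.4%) elsewhere in a zinc finger gene and 86 outside. The DiffBind regions were placed like the RS peaks, with 10 of 118 (8.47%) in a promoter, 85 (72.0%) elsewhere in a zinc finger gene and 23 outside.

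At the far end of the gene lies the finger array, taken here from the first to the last linker in the longest coding sequence. It could be drawn for 39 of the 40 genes, all but the ZNF816-ZNF321P readthrough, with between 2 and 17 linkers per gene and 324 in all. RS peaks covered 75.2% of array bases, against 34.5% of the rest of these genes. PRO peaks covered none of the array bases of any of the 39 genes, against 1.70% of the rest of these genes. The arrays total 36.2 kb, and 1.70% of that is shorter than a PRO peak of median length, so the absence of PRO peaks from them could not be told from low PRO cover. In RS, this was the part of the genes with the most RS cover of those measured.

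**Figure D4:**
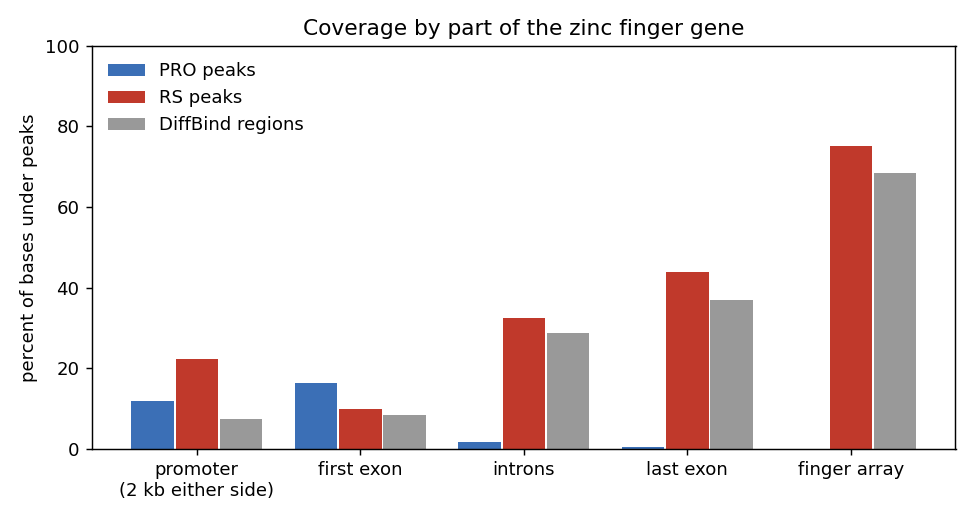
Bars give the percent of bases under PRO peaks (blue), RS peaks (red) and DiffBind regions (grey) in 5 parts of the 40 zinc finger genes, with arrays drawn for 39. PRO cover is 16.3% in first exons, 0.403% in last exons and 0 in arrays, while RS cover runs from 9.78% in first exons to 75.2% in arrays. Middle exons, at 48.8% in RS peaks, are not drawn.

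In 24 of the 39 genes at least 90% of the array lay in RS peaks, and in 23 of them all of it. On chromosome 19 outside the interval, 81 of 172 arrays had at least 90% in RS peaks and 71 were fully covered. In the 19q13.12 cluster these counts were 14 and 11 of 26 arrays. ZNF841, ZNF836, ZNF665 and ZNF347, with 16, 16, 15 and 13 linkers, were all fully covered. ZNF160, with 14 linkers, was at 73.9%, and ZNF888, also with 14, at 0. ZNF845 had the longest row by this count, 17 linkers, and its array was 64.8% in RS peaks. Even ZNF175 and ZNF331, with RS shares of 6.60% and 11.4% over the whole body, had their arrays fully in RS peaks. The low shares of ZNF175 and ZNF331 thus came with full cover of the part that encodes the fingers. This did not hold for the other genes with an RS peak and less than 20% of the body covered. The arrays of ZNF611, ZNF83 and ZNF160 were at 81.2%, 80.1% and 73.9%, and those of ZNF525, ZNF816, ZNF614 and ZNF415 at 0.

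In 10 of the 39 genes the array had no RS base, against 57 of 172 arrays on chromosome 19 outside the interval. The 10 genes were ZNF614, ZNF766, ZNF480, ZNF534, ZNF578, ZNF701, ZNF888, ZNF816, ZNF415 and ZNF525. Among them ZNF578 and ZNF480 had 68.6% and 54.3% of the body in RS peaks. For ZNF578 and ZNF480 the array lay wholly in DiffBind regions, and for ZNF534 62.9% of it did, although no RS peak reached it. In the other 7, including ZNF888 with 14 linkers, DiffBind regions covered none of it. The RS and DiffBind lists therefore differ over some arrays, and the lists hold no score by which to tell how.

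Counted by linker, 234 of the 324 linkers in coding sequence (72.2%) lay in RS peaks and none in PRO peaks. The interval held another 105 linker matches outside the coding sequence of these genes, of which 40 (38.1%) lay in RS peaks. An unnamed coding gene within the span of ZNF83 (ENSG00000269825), which was not counted with the zinc finger genes because of its name, had 10 of these and no region of any list. In 1-kb windows, a linker was found in 1.02% of chromosome 19, in 10.8% of the windows of the interval with 50% or more in RS peaks, in 2.59% of the other windows and in none of the 41 windows with 50% or more in PRO peaks. With only 41 such windows, this absence could not be told from a low share of windows with a linker. A match describes sequence and says nothing about a bound factor.

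Arrays made up a small part of the cover. They held 5.90% of the RS bases of these genes, and most RS bases lay in introns, of which RS peaks covered 32.5%. When each body was cut into 10 equal parts from start to end, RS cover was 16.8% in the first, 45.1% in the fifth and 37.4% in the last. PRO cover was 4.85% in the first and 0.373% in the last. Last exons had 43.9% in RS peaks and 0.403% in PRO peaks, middle exons 48.8% and 2.12%, and first exons 9.78% and 16.3%. With the transcript of the longest coding sequence, RS peaks covered 39.5% of middle exons and 54.8% of last exons, so the order of these 2 parts was reversed. The order in first exons depended on the gene model, as with the transcript of the longest coding sequence they had 10.5% in RS peaks and 8.88% in PRO peaks.

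PRO and RS peaks also differed in base composition. PRO peaks had 50.1% GC and a CpG ratio (observed over expected from base content) of 0.485, against 44.9% and 0.302 in the whole interval. RS peaks were close to the interval, at 45.4% and 0.302. Among PRO peaks, the median CpG ratio was 0.589 in promoters, 0.361 elsewhere in zinc finger genes and 0.420 outside. The 15 promoters with a PRO peak and the 25 without were alike in composition, with median GC of 49.0% in both and median CpG ratios of 0.501 and 0.476. Immunoprecipitated and sequenced fragments can depend on base composition, and its part in these peaks was not tested.

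Of the 51 PRO peaks of the interval, 39 overlapped an RS peak (76.5%, exact 95% interval 62.5% to 87.2%, for counting error only), against 54.8% of all nuclear PRO peaks. The exact interval counts neighbouring peaks as independent. RS peaks covered 23.3% of the cluster and 1.33% of the genome, and the part of this density in the overlap was not tested. The share of PRO peaks that overlapped an RS peak was 45.5% without peaks that hold a repeated 75-base window, and 15.7% where the overlap had to reach 50% of both regions. The reverse share was small, as 35 of the 336 RS peaks (10.4%) overlapped a PRO peak. PRO and RS peaks shared 30.0 kb, which was 67.0% of PRO bases and 5.38% of RS bases.

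The 12 PRO peaks without an RS peak were chosen for naming after their values were seen. Of these, 4 lay in promoters, namely 2 at ZNF836 and 1 each at ZNF808 and ZNF320. Another 4 lay in the bodies of ZNF432, ZNF701, ZNF160 and ZNF347. The remaining 4 lay outside zinc finger genes, in CEACAM18, in an unnamed long non-coding RNA gene and at 2 places in the zinc finger pseudogene ZNF702P. None of the 12 overlapped a DiffBind region. The third longest PRO peak of the interval (chr19:52676001-52678001, in an intron of PPP2R1A) was among them.

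The DiffBind list gives no direction, so its regions were sorted by the peaks they overlap. Of the 118, 94 (79.7%) overlapped RS peaks alone, 15 both kinds, 9 neither and 0 PRO peaks alone. The longest (chr19:52370601-52387601, 17001 bases) lay in ZNF577 and was 90.6% in RS peaks with no PRO base. The second (chr19:53342201-53358801) lay over ZNF468 and an intron of ZNF28, and the third (chr19:52625401-52641001) in ZNF616. Conversely 190 of the 336 RS peaks lay at least partly in a DiffBind region. Their median length was 1401 bases, against 1001 for the 146 that did not, and 8.42% of them overlapped a PRO peak, against 13.0% of the 146. RS peaks at zinc finger promoters made up 9 of the 190 and 18 of the 146.

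Set beside the zinc finger clusters of chromosome 19 chosen for comparison, the interval, with 23.3% in RS peaks, came near 19p12. Not every such cluster of the chromosome was included. RS peaks covered 23.4% of 19p12 (chr19:19800001-24600000), 46.3% of 19q13.12 (chr19:36900001-38300000) and 18.2% of 19q13.43 (chr19:56400001-59100000). The ratio of RS to PRO bases was 30.1, 8.90 and 5.85 in these clusters, with 12.5 in the interval between them. The median RS share of a zinc finger gene was 31.1%, 54.7% and 7.16%, against 35.9%.

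The pattern within genes recurred in the compared clusters to different degrees. PRO peaks covered no array base in 19p12 (36 arrays) or 19q13.12 (26 arrays), as in the interval, and 2.62% in 19q13.43 (32 arrays). In 19q13.43 an array could be drawn for only 32 of its 60 zinc finger genes, while its promoter values rest on all 60. RS peaks covered 25.6%, 73.9% and 54.23% of array bases in these clusters, against 75.2%. Over all 172 arrays of chromosome 19 outside the interval, RS peaks covered 58.3% and PRO peaks 1.23% of array bases, and 6 arrays had a PRO peak. Thus 19p12 had RS cover of whole genes near that of the interval and lower cover of arrays. Promoter cover in PRO was 9.74% in 19p12, 5.01% in 19q13.12 and 13.98% in 19q13.43, against 11.8%. These are side-by-side values of 1 list per state, and no test of the differences between clusters was possible.

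**Figure D5:**
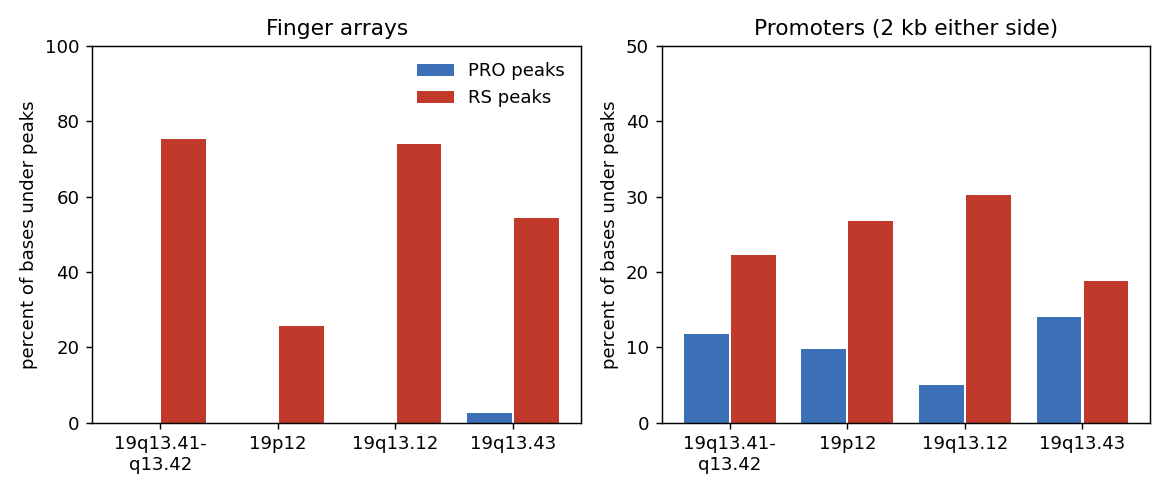
Bars give the percent of bases under PRO peaks (blue) and RS peaks (red) in finger arrays (left) and promoters (right) of the zinc finger genes of 4 clusters on chromosome 19. Arrays have no PRO cover in 3 of the 4 clusters, while promoters have between 5.01% and 13.98%.

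A read that fits several near-identical genes cannot be assigned to one of them with certainty, which bears on a cluster that arose by duplication. Of the 75-base windows of the interval, 3.24% occur elsewhere in the genome, against 2.75% in RS peaks and 4.09% in PRO peaks. Within arrays the share was 1.14% over the 29 arrays with RS cover and 3.15% over the 10 without. When bases that begin such a window were left out of covered and total length alike, RS peaks covered 23.4% of the interval and 75.5% of array bases, and PRO peaks 1.85% and 0. So few bases were left out that these shares could hardly move. Dropping whole peaks that hold any such window was a harsher filter, as it removed 196 of 336 RS peaks, with a median length of 1601 bases against 801 for those kept. RS cover was then 6.06% of the interval and 24.2% of array bases, PRO cover was 0.568% and 0, and 14 genes had a gain.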

How the data were processed

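Reads were aligned by the authors with Bowtie2 2.1.0 to the hg19 build, and they called domains against histone H4 with SICER 1.1 in windows of 200 bases, and the submitters' processing notes also name CASAVA 1.8.2, Trim Galore 0.3.0 and Picard 1.98. They intersected the domains of both antibodies per state, and made a list of differing regions with DiffBind 1.8.3. The 3 deposited lists hold only region starts and ends in bases, with no score, count, ratio or direction, so they carry no depth; read totals per library are given in the study's supplement and were not used here. The study reports that the peaks of the antibodies overlapped much more in RS than in PRO cells. The intersection may therefore have removed more of the PRO peaks, and its part in the differences between the lists was not tested. A weak domain seen with 1 antibody is absent from the PRO and RS peak lists. The DiffBind list is not bounded by them, as 9 of its regions in the interval overlapped neither, and the study gives a minimum overlap of 1 for it. Fewer DiffBind regions were at hand than the study describes. Starts lie on the 200-base grid, so positions are no finer than that.

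Covered bases were computed with Python 3.11 and NumPy 2.4.6 over genes of GENCODE release 44 on GRCh37, figures were drawn with Matplotlib 3.10.9, and exact intervals came from SciPy 1.17.1. The interval arithmetic was tested on simulated regions. Zinc finger genes were taken by symbol (ZNF, ZFP, ZSCAN or ZKSCAN and a digit). Named genes of at least 2000 bases were the 10 with the largest RS share, the 5 with the largest PRO share or difference, zinc finger genes without an RS peak, and the SIGLEC, FPR, VN1R and ERVV genes. Other zinc finger genes are named to account for each of them. Named regions were the 3 longest of each list and the 3 joined domains with the most RS bases. The interval and the gene lists were chosen with earlier results of these data known, and the arrays, the profile around starts and the printed sequences after the values of genes were seen. No statistical test was run, as each state is 1 list. The reference sequence used here marks no interspersed repeats, so retroelements were not analysed here.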

Additional observations from a re-analysis of the deposited data

How the results depend on the processing

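No paired analysis was possible because the lists merge both antibodies of a state and give no values per sample, and leaving out each replicate was not run for the same reason. RS cover exceeded PRO cover of the interval under each of the 6 alternatives that change the lists, the interval or the bases counted. A base share was taken as stable within the exact 95% binomial interval of its value counted in 200-base windows, and a count or ratio within 1.5 times. By this measure 106 of 149 values were stable, including the RS to PRO ratio (10.7 to 13.6) under each alternative. PRO cover of arrays, which was 0 throughout and which few of these alternatives could change, is left out of that count. The alternative that dropped 1-base peaks and shortened each region by 1 base could hardly move a value. The same holds for leaving out only the repeated bases. Both add to the stable count, which therefore overstates how far the values hold.

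Without peaks that hold a repeated 75-base window, a filter that removed long peaks more often, cover by PRO, RS and DiffBind fell to 0.568%, 6.06% and 2.16% of the interval, 0.647%, 8.65% and 3.53% of zinc finger genes, 0.142%, 0.283% and 0 of other coding genes, and 0.632%, 4.62% and 0.996% outside coding genes, so that PRO cover was no longer higher outside coding genes. In promoters it was 5.01%, 4.6% and 2.40%, so that PRO exceeded RS there, and RS and DiffBind covered 24.2% and 9.68% of arrays. The counts of zinc finger genes were 15 for PRO and 14 for DiffBind, 14 genes had a gain, and 45.5% of PRO peaks overlapped an RS peak. Leaving out only the repeated bases, which was chosen after seeing the data, moved none of its 19 values out of the stable range. It takes out 3.24% of the interval, from covered and total length alike. These values could therefore hardly move, and their stability says little about repeated sequence.

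In the narrower interval without its gene-family flanks, cover was 2.46%, 30.4% and 25.8%, in other coding genes 2.87%, 3.05% and 2.53%, and outside coding genes 4.84%, 24.56% and 15.3%. With peaks within 1000 bases joined, RS cover was 28.005%, 40.9% in zinc finger genes and 20.0% outside coding genes, and DiffBind cover 20.9% and, in zinc finger genes, 32.8%. With peaks of at least 600 bases only, RS cover was 22.5%. With 2000 bases added on either side, PRO covered 2.45% and DiffBind 29.1% of zinc finger genes. With overlap of at least 10% of the body, PRO peaks counted for 1 gene. With overlap of at least 50% of both regions, 15.7% of PRO peaks matched an RS peak. In last exons of the transcript with the longest coding sequence, RS and DiffBind cover was 54.8% and 52.7%, and at the starts of those transcripts, chosen after seeing the data, promoter RS cover was 18.9%.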

Other observations

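Non-coding genes of the interval, which the account by coding genes leaves aside, also carried H4K20me3. Of the 44 long non-coding RNA genes, 21 had an RS peak (47.7%, against 16.7% of all such genes), 11 had a PRO peak (25%, against 2.14%) and 10 had at least 50% of their length in RS peaks (22.7%, against 0.904%). Of the 4 zinc finger pseudogenes, 3 had an RS peak (75%, against 39.8% of all zinc finger pseudogenes) and 1, ZNF702P, had a PRO peak (25%, against 5.83%). Of the 39 other pseudogenes, 16 had an RS peak (41%, against 7.75% of all such pseudogenes), none had a PRO peak (against 1.29%) and 12 had at least 50% of their length in RS peaks (30.8%, against 3.99%). Of the 18 microRNA genes, MIR526B lay in an RS peak (5.56%, against 3.64% of all microRNA genes) and none lay in a PRO peak (against 0.951%). These genes are short and many overlap zinc finger genes, and no test was possible.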
